A study of Mus musculus with 12 samples.

Results

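The genes described here are 5 Krüppel-like factors (Klf2, Klf3, Klf4, Klf6 and Klf13) and 2 receptors for sphingosine 1-phosphate (S1pr1 and S1pr4), chosen by symbol and all 7 found among the 24781 gene symbols of the deposited expression table. They were measured in iNKT cells (invariant natural killer T cells), innate-like mouse lymphocytes that see lipid antigen on CD1d, sorted from thymus or lung at 6 weeks of age. Every library was made from 100 cells sorted for TCRbeta, NK1.1, CXCR6 and binding of the CD1d tetramer. Cells of each tissue were split by CD244 into a positive group, the study's C2 subset, and a negative group, its C1 subset, and 3 libraries were made of each of these 4 groups. The labels give no strain, sex, treatment or count of mice, and call the replicates independent library preparations. So p-values measure a spread between libraries that may be technical. For each gene the test takes a single spread from all 4 groups and moderates it across genes.

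Krüppel-like factors bind GC-rich and CACCC-type DNA through zinc fingers at their C-terminal end. In T cells KLF2 is known for turning on S1pr1, whose protein senses the sphingosine 1-phosphate of blood and lymph and lets mature T cells leave the thymus. KLF3 is a repressor that recruits CtBP proteins, KLF4 is best known in monocyte and macrophage differentiation and epithelia, KLF6 is induced rapidly by many stimuli, and KLF13 was described as a late-acting activator of the chemokine gene Ccl5. S1PR4 is a further sphingosine 1-phosphate receptor that blood cells carry.

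The promoters of Klf2, Klf4 and Klf6 are shown because these 3 factors separated the CD244 subsets, Klf2 in thymus and Klf4 and Klf6 in lung. Each line gives the 250 bases before the RefSeq transcription start on the gene's own strand (GRCm38.p6). Klf2 lies at chr8:72318812-72319061 on the plus strand, Klf4 at chr4:55532476-55532725 on the minus strand and Klf6 at chr13:5861239-5861488 on the plus strand. Capitals mark the MEF2 site in Klf2, and GC boxes (GGGCGG or its reverse complement CCGCCC) in Klf4 and Klf6.
Klf2: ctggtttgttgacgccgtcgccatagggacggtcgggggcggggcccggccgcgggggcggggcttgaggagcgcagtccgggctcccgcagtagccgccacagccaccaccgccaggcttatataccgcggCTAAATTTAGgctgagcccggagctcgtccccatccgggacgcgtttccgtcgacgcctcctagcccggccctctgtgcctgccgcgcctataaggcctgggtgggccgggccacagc
Klf4: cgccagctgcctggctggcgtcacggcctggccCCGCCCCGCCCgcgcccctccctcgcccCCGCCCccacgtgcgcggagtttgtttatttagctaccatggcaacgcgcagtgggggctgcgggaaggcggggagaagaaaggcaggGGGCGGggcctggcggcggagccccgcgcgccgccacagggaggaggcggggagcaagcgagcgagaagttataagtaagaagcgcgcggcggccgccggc
Klf6: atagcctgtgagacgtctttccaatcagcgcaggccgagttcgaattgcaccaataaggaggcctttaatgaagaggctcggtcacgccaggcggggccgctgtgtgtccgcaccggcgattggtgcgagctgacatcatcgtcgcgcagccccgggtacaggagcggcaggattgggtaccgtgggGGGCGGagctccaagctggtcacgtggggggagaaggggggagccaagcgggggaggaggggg

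Motifs were counted on both strands of windows from 250 bases before to 50 bases after the start, which RefSeq gave for 6 of the 7 genes; S1pr1 had no entry. The MEF2 site, matched by its name's usual 10-letter pattern, was found at 118 bases before the Klf2 start and in none of the other 5 windows, while 3.19% of 32851 windows of the same length held it. The CACCC box (or GGGTG, KLF box in the plot of motif positions), to which Krüppel-like factors bind, occurred 5 times in the Klf3 window, once each in those of Klf2, Klf13 and S1pr4, and not in those of Klf4 and Klf6. At least 1 box was present in 57.5% of all windows and at least 5 in 1.02%. GC boxes, which overlapped each other in Klf4, numbered 6 in Klf3, 4 in Klf4, 3 in Klf13, 2 in Klf2, 1 in Klf6 and 0 in S1pr4, against at least 1 in 35.7% of all windows. The AP-1 site (TGANTCA, present in 7.81% of windows), the CArG box (1.63%) and the forkhead site GTAAACA (3.65%, either strand) were in none of the 6 windows. An NF-kappaB site, GGGA and CC with any 4 bases between them, was found in Klf3 and Klf4 (20.7% of windows) and the core of the cAMP response element, TGACG, in Klf2, Klf3, Klf4 and Klf13 (20.8%). A match of letters is a description of the window and no evidence of binding.

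**Figure D1:**
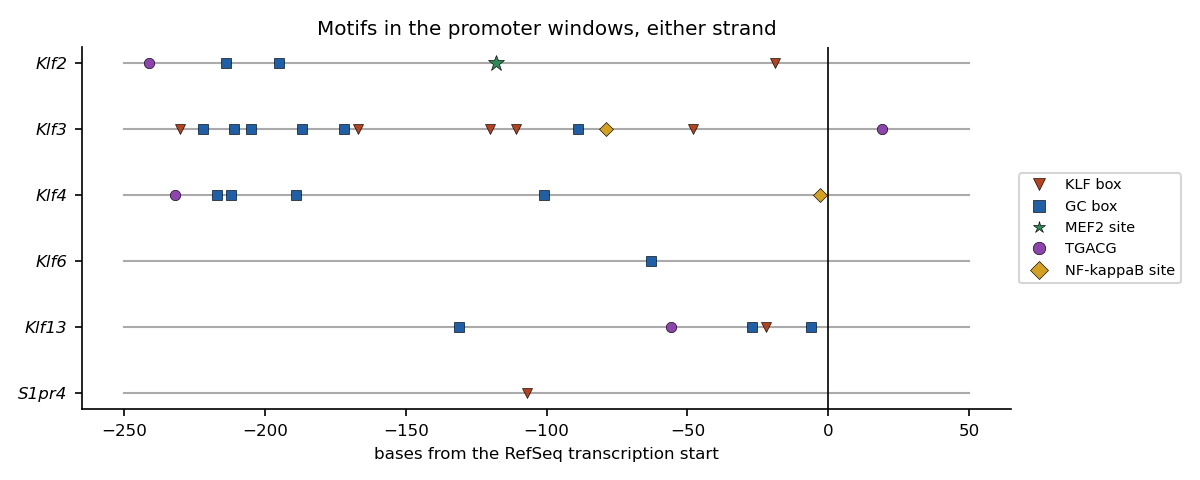
Motif positions in the promoter windows of 6 genes, in bases from the RefSeq transcription start (x axis), one row per gene and one symbol per motif on either strand. Klf2 alone holds a MEF2 site, at 118 bases before the start, and Klf3 holds 5 CACCC boxes and 6 GC boxes.

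The libraries held 29696 to 71789 recovered molecules (unique molecular identifiers), fewest in lung CD244-negative cells (29696 to 32196). A count of 3 molecules corresponded to 1.12 to 1.42 deposited units in CD244-positive libraries and 1.20 to 1.34 in CD244-negative libraries of thymus, and to 1.13 to 1.36 and 1.80 to 1.95 in those of lung; all intervals on molecules below are exact 95% intervals that cover counting error only. All 12 T cell receptor complex markers and all 6 iNKT1 markers were present in each group. Cd244, the gate gene, had 13 molecules in thymus CD244-positive, 2 in lung CD244-positive and 0 in both CD244-negative groups. Of 12 myeloid markers, all 12 were present in lung CD244-positive libraries, where they summed to 57.2, 120 and 95.3 molecules per 10000 in libraries 1, 2 and 3. Their sum was at most 0.337 per 10000 in the lung CD244-negative group and at most 0.177 in thymus, where 11 and 12 of the 12 markers were at 0 in CD244-positive and CD244-negative cells. T cell receptor complex genes summed to 16.0 to 25.6 per 10000 in lung CD244-positive against 39.7 to 46.8 in lung CD244-negative libraries. Endothelial cells are rich in Klf2, Klf4 and S1pr1, and of 12 endothelial markers 7 were at 0 in all 12 libraries, Cdh5 and Cldn5 among them, with a sum of at most 0.706 per 10000 in any library. That highest sum was in lung CD244-positive library 2, where Klf2 (29 molecules) and Klf4 (17 molecules) were also highest. The part of endothelial RNA in their values was not tested. The iNKT1 markers summed to 59.3, 72.8 and 27.2 per 10000 in lung CD244-positive libraries 1, 2 and 3, library 3 standing apart, and to 35.4 to 39.5 in lung CD244-negative libraries. Of these molecules Ccl5 held 608.5 of 739 in lung CD244-positive and 163 of 345 in lung CD244-negative cells. By the test given below, 1 of the 6 iNKT1 markers was higher and 2 were lower in lung CD244-positive cells, against 5.61% and 2.82% of all tested genes. The log2 difference was below 0 for 5 of the 6, at a median of -0.73.

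**Figure D2:**
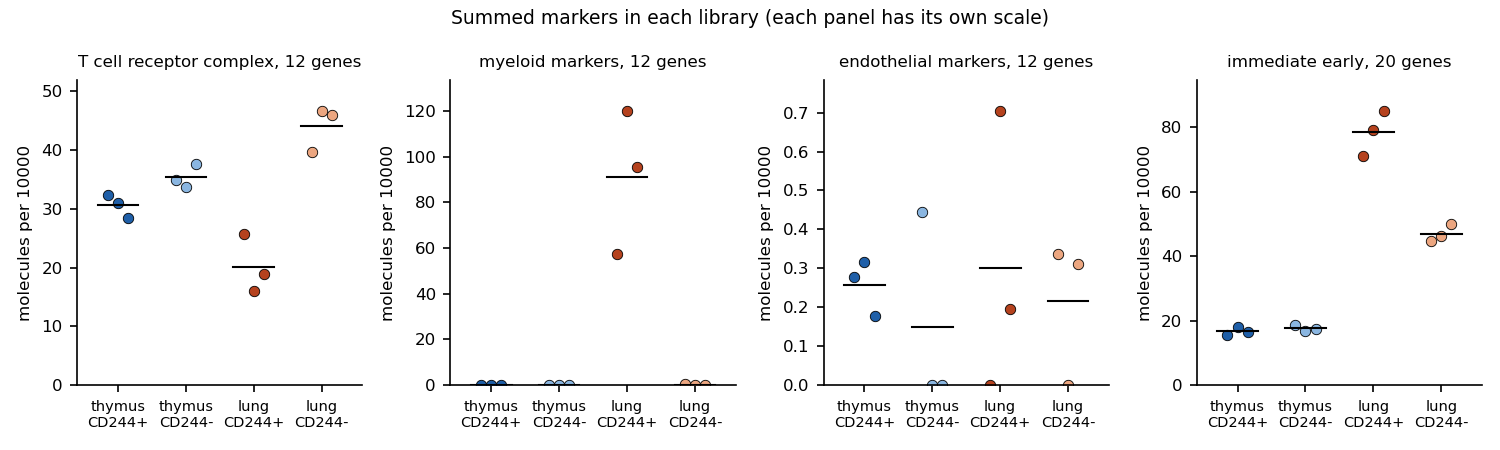
Summed molecules per 10000 (y axis, own scale in each panel) of 4 marker lists in each of the 12 libraries, grouped by tissue and CD244; lines are means of 3 libraries. Myeloid markers are at 57.2 to 120 in lung CD244-positive libraries and at most 0.337 elsewhere, and immediate early genes are highest in the same libraries.

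All 7 genes exceeded 1 unit in at least 3 libraries and were among the 5138 genes tested. Klf4 passed that limit through its lung CD244-positive libraries, which supplied 3 of the 4 values above 1 unit, so that it had to differ between groups. S1pr1 passed it through lung, with 3 libraries above 1 unit in each lung group. In thymus it had 1 such library in CD244-positive and 0 in CD244-negative cells. The p of S1pr1 for lung against thymus is therefore not independent of the limit. The totals over all libraries were 241 molecules of Klf6, 118.5 of Klf2, 111 of Klf13, 68 of S1pr4, 55 of Klf3, 53 of S1pr1 and 43 of Klf4. Values are given in the deposited units, differences as log2(value + 1), which understates changes of low values, and tests are limma adjusted over all genes tested unless another tool is named.

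**Figure D3:**
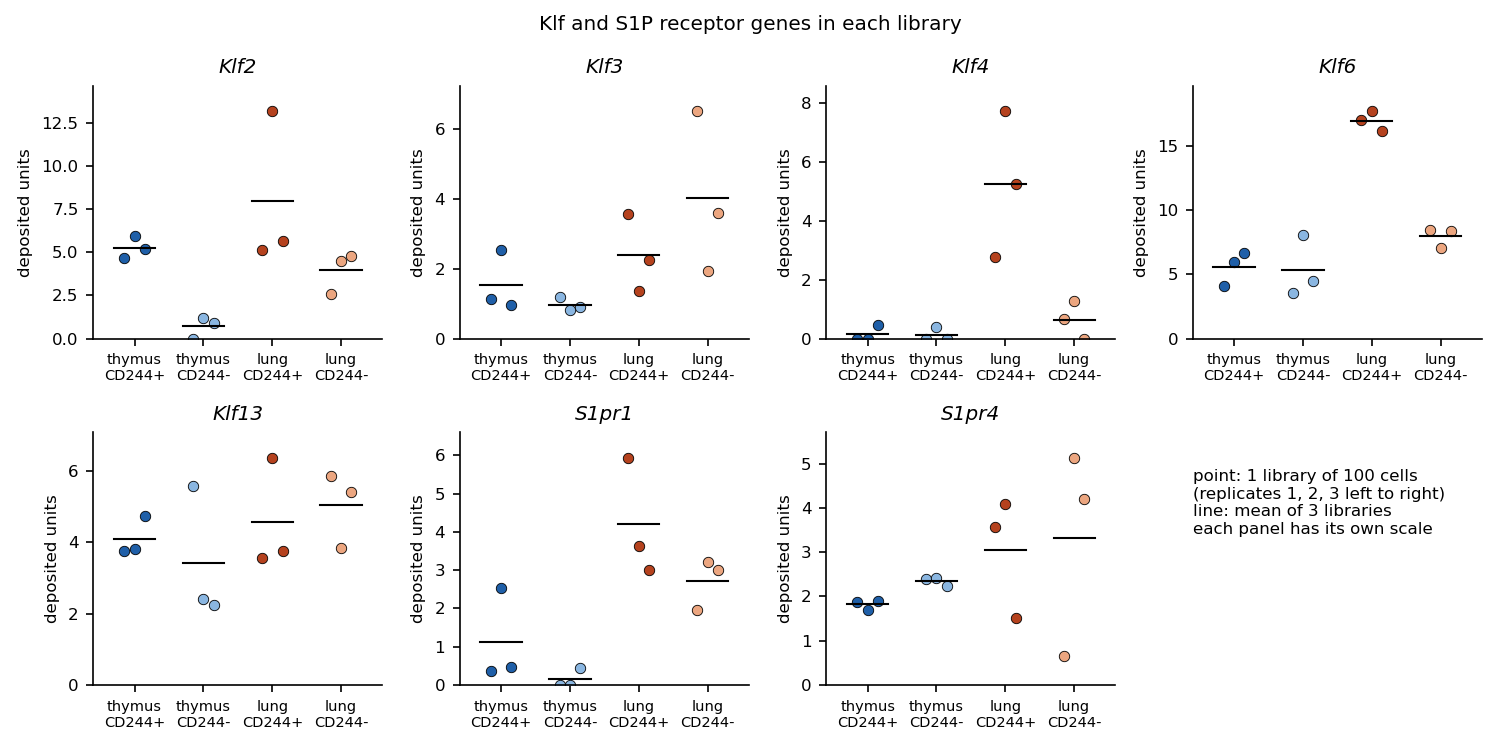
Deposited units (y axis, own scale in each panel) of the 7 genes in each library by group; a point is 1 library of 100 cells and a line the mean of 3. Klf2 is high in all groups except thymus CD244-negative, Klf4 and Klf6 are highest in lung CD244-positive libraries, and S1pr1 is low in thymus apart from CD244-positive library 2.

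In thymus, Klf2 was the 1 gene of the 7 that passed the test, higher in CD244-positive cells. Klf2 (chromosome 8, 72319033 to 72321656, build mm10, plus strand, 3 exons) had 4.68, 5.93 and 5.22 units in CD244-positive libraries 1, 2 and 3, and 0, 1.21 and 0.895 units in CD244-negative libraries. The groups did not overlap, and each CD244-negative library held at most 3 molecules. The means were 5.28 ± 0.628 against 0.700 ± 0.626 units (SD, n = 3), a log2 difference of 1.96 ± 0.36 (SE, limma adjusted p = 0.000208). In molecules this was 38 against 5, after rounding 1 value of 12.5, a ratio between the 2 groups' molecule shares of 7.70 (3.03 to 25.1). Klf2 passed with every library left out in turn (largest adjusted p = 0.0282, without CD244-negative library 1). The sum of the 6 iNKT1 markers moved with Klf2 in thymus. It was 56.6 to 61.3 molecules per 10000 in CD244-positive and 23.1 to 29.6 in CD244-negative libraries, without overlap. Ccl5, 1 of the 6, held 651 of the 1120 marker molecules in CD244-positive and 47.5 of 510.8 in CD244-negative cells. By the test 1 of the 6 markers rose, against 0.331% of all tested genes, and 4 lay above 0 and 2 below, at a median log2 difference of 0.15. Their part in the Klf2 difference was not tested.

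S1pr1 (chromosome 3, 115710433 to 115715072, minus strand, 2 exons), the receptor gene that KLF2 activates, was near the limit of detection in thymus. It had 0.375, 2.54 and 0.475 units in the CD244-positive libraries and 0, 0 and 0.447 units in the CD244-negative ones. A single library, CD244-positive library 2, held 6 of the 8 molecules of its group, against 1 molecule in the CD244-negative group. The log2 difference was 0.77 ± 0.40 (adjusted p = 0.862), with a ratio of shares of 8.11 and a counting interval of 1.09 to 360, so a difference was not resolved at this depth.

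The other 5 genes did not pass in thymus. S1pr4 (chromosome 10, 81497747 to 81500132, minus strand, 1 exon) had 1.87, 1.70 and 1.90 units in CD244-positive against 2.39, 2.41 and 2.24 units in CD244-negative libraries. These groups did not overlap, with 13 against 17 molecules, but the log2 difference of -0.25 ± 0.39 was within its error (adjusted p = 1; ratio of shares 0.775, interval 0.346 to 1.70). Klf6 had the same number of molecules in both subsets, 39 and 39, with a log2 difference of 0.09 and a 95% interval of -0.46 to 0.63. Klf13 differed by 0.28 (-0.38 to 0.95) and Klf3 by 0.32 (-0.45 to 1.10), while Klf4 had 1 molecule in each subset. Thus 1 of 7 genes rose in thymus CD244-positive cells and 0 fell (1 at an unadjusted p under 0.05), with a median log2 difference of 0.28; among all tested genes 0.331% rose, 0.0779% fell and the median was -0.02. CD244-positive libraries lay wholly above CD244-negative ones for 5.47% of all tested genes and wholly below for 6.42%. By edgeR, 4 of the 7 (Klf2, Klf6, Klf13 and S1pr4) could be tested and Klf2 alone passed (log2 difference 3.53, adjusted p = 0.00306).

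In lung, Klf4 and Klf6 were higher in CD244-positive cells. Klf4 (chromosome 4, 55527143 to 55532466, minus strand) had 2.77, 7.73 and 5.26 units in CD244-positive libraries 1, 2 and 3 against 0.651, 1.28 and 0 units in CD244-negative libraries. The lowest CD244-positive library was above the highest CD244-negative one, and the CD244-positive libraries spread widely among themselves. The log2 difference was 1.92 ± 0.40 (adjusted p = 0.000222), with 38 against 3 molecules and a ratio of shares of 8.16 (2.59 to 41.3). Klf4 entered the tested set through this CD244-positive group, so its p is not independent of the expression limit; with no limit, over 12206 genes, the adjusted p was 0.000167. The order of Klf4 in the 3 CD244-positive libraries (lowest in library 1, highest in library 2) was that of the myeloid markers, at 57.2, 120 and 95.3 per 10000; the part of myeloid RNA in the difference was not tested.

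Klf6 (chromosome 13, 5861482 to 5870394, plus strand) was the most even of the genes in lung. It had 17.0, 17.7 and 16.2 units in CD244-positive and 8.47, 7.06 and 8.41 units in CD244-negative libraries, with no overlap. The means were 17.0 ± 0.787 against 7.98 ± 0.798 units (SD, n = 3), a log2 difference of 1.0 ± 0.28 (adjusted p = 0.00867). The 125 against 38 molecules gave a ratio of shares of 2.12 (1.46 to 3.13), and edgeR gave a log2 difference of 1.22 (adjusted p = 0.00174). Without CD244-positive library 2 the adjusted p was 0.0548 at a log2 difference of 0.97. Klf6 came beside the same myeloid markers and beside immediate early genes. The immediate early genes summed to 71.0 to 85.2 molecules per 10000 in CD244-positive and 44.8 to 50.0 in CD244-negative libraries. Of these, 8 of 19 tested passed as higher, against 5.61% of all tested genes. The part of myeloid or immediate early genes in the Klf6 difference was not tested.

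Klf2 in lung had 5.15, 13.2 and 5.64 units in CD244-positive against 2.61, 4.49 and 4.81 units in CD244-negative libraries. The groups did not overlap, but library 2 lay far above the other CD244-positive libraries, and the log2 difference of 0.78 ± 0.36 did not pass (adjusted p = 0.196). The difference between the Klf2 effects of lung and thymus was -1.18 ± 0.50 and did not pass either (adjusted p = 0.261), so the thymus and lung effects were not shown to differ. In lung CD244-positive libraries 1, 2 and 3, Klf2 had the order of the myeloid markers (57.2, 120 and 95.3 per 10000). The part of myeloid RNA in the lung Klf2 values was not tested. S1pr1 had 5.94, 3.64 and 3.01 units in CD244-positive against 1.95, 3.21 and 3.00 units in CD244-negative libraries, overlapping groups with a log2 difference of 0.46 (95% interval -0.34 to 1.25). Klf13, S1pr4 and Klf3 gave -0.14 (-0.80 to 0.53), 0.05 (-0.72 to 0.82) and -0.51 (-1.29 to 0.27). The count in lung was 2 of 7 higher, 1 of them Klf4, which the expression limit admitted through the group where it was high, and 0 lower (3 at an unadjusted p under 0.05), at a median of 0.46, against 5.61% of all tested genes higher, 2.82% lower and a median of -0.01. CD244-positive libraries lay wholly above for 11.6% of all genes. With each library scaled to an equal sum of T cell receptor complex genes, which moved the median of all genes in this comparison to 0.68, 4 of 7 passed: Klf4 (2.83), Klf6 (2.10), Klf2 (1.81, adjusted p = 0.000269) and S1pr1 (1.41, adjusted p = 0.00726). On that scale 1773 of 5803 tested genes rose and 16 fell. Relative to that median they stood at 2.16, 1.42, 1.13 and 0.73. With lung CD244-positive library 1, the one lowest in myeloid markers, as the only library of its group, the spread was taken from the other groups and the calls over all genes went from 288 higher and 145 lower to 34 and 26, so the loss of a call there says little. The log2 difference of Klf6 was 1.01 in that fit (adjusted p = 0.327), and Klf4 was not tested.

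Over both tissues, with each weighted equally, Klf2 was higher in CD244-positive cells by 1.37 ± 0.25 (6 libraries against 6, adjusted p = 4.34e-05) and held with every library left out. All averages over both tissues include the lung CD244-positive libraries, whose myeloid RNA was not tested for its part. Klf4 averaged 0.97 ± 0.28 (adjusted p = 0.0235), and its effect in lung exceeded that in thymus by 1.90 ± 0.57 (adjusted p = 0.0399). Both Klf4 calls were fragile: the average passed in 6 of 12 fits with 1 library left out (adjusted p up to 0.148, without lung CD244-positive library 2), and the difference between tissues in 3 of 12 (adjusted p up to 0.253, without the same library). With no expression limit the adjusted p of the difference was 0.0634. Klf6 averaged 0.55 ± 0.19 and did not pass (adjusted p = 0.0916), although it did with edgeR (0.93, adjusted p = 0.0162). Over both tissues 2 of 7 genes rose, against 3.41% of all tested genes (1.30% fell), and 1 of 7 had a larger effect in lung, against 2.65% of all (0.623% had a smaller one).

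**Figure D4:**
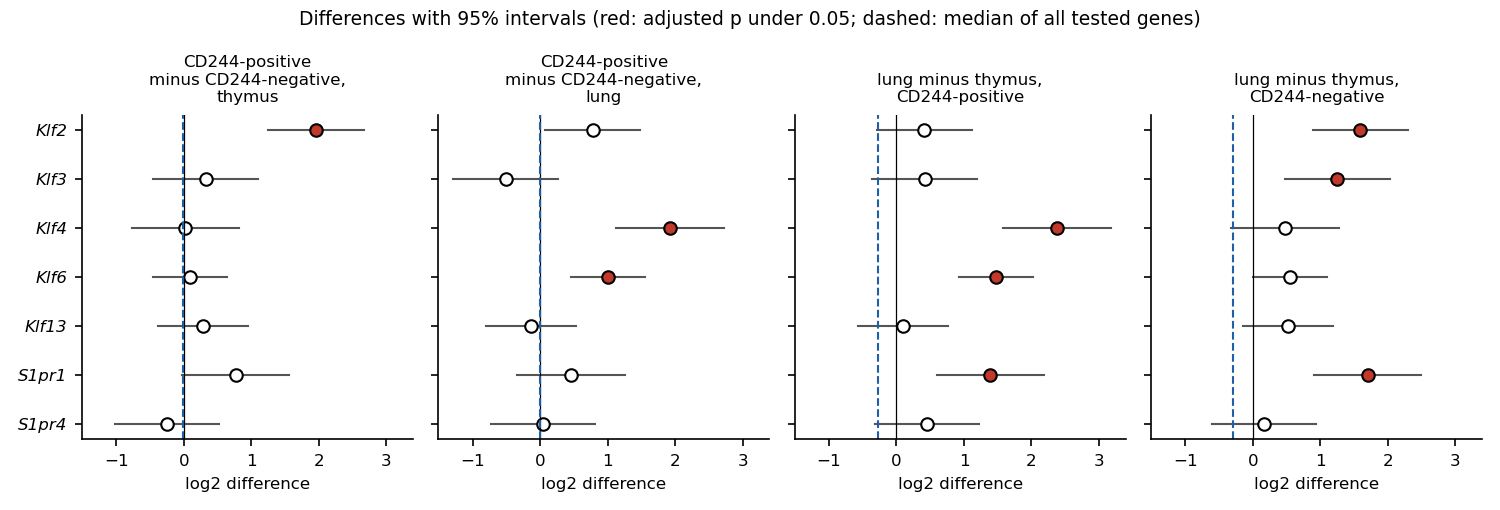
Log2 differences of the 7 genes (x axis) with 95% intervals in 4 comparisons, from 1 limma model of 12 libraries; red points passed an adjusted p under 0.05 and the dashed line is the median of all tested genes. Klf2 passes in thymus (1.96), Klf4 and Klf6 in lung (1.92 and 1.0), and S1pr1 in lung against thymus in both subsets (1.39 and 1.70).

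The clearest tissue difference of the egress genes was in CD244-negative cells, where myeloid markers were at or near 0 in both tissues. S1pr1 had 1.95, 3.21 and 3.00 units in lung against 0, 0 and 0.447 units in thymus CD244-negative libraries, 13 against 1 molecule. The groups did not overlap, and the log2 difference was 1.70 ± 0.40 (adjusted p = 0.00125, ratio of shares 27.5, interval 4.13 to 1167). S1pr1 entered the tested set through lung, so this p is not independent of the expression limit. Klf2 moved with S1pr1, at 2.61, 4.49 and 4.81 units in lung against 0, 1.21 and 0.895 units in thymus. Its log2 difference was 1.59 ± 0.36 (adjusted p = 0.000634), with 19 against 5 molecules and a ratio of shares of 8.03 (2.90 to 27.5). Both passed with every library left out in turn.

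Klf3 (chromosome 5, 64803388 to 64832901, plus strand), the CtBP-recruiting repressor gene, was higher in lung CD244-negative cells too. It had 6.51, 1.92 and 3.60 units in lung against 1.20, 0.804 and 0.895 units in thymus, where all 3 libraries lay below the lowest lung library. The log2 difference was 1.25 ± 0.39 (adjusted p = 0.0236), with 19 against 7 molecules, and it rested on single libraries: the adjusted p was 0.178 without lung library 1, 0.0808 without thymus library 2 and 0.0683 without thymus library 3. On the T cell receptor complex scale it was 0.0613, at a log2 difference of 1.28. Klf6 had 8.47, 7.06 and 8.41 units in lung against 3.59, 8.04 and 4.47 units in thymus, which overlap, and 0.55 ± 0.28 did not pass on the deposited scale (adjusted p = 0.200).

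The deposited totals differ by tissue, and the median of all genes for lung minus thymus was -0.29 in CD244-negative and -0.27 in CD244-positive cells. With all libraries at a common total these medians were -0.03 and 0.00, and the log2 differences in CD244-negative cells were 1.91 for S1pr1, 1.87 for Klf2 and 1.55 for Klf3, all past the threshold. The calls over all genes then went from 112 higher and 438 lower to 161 and 150 in CD244-negative cells, and from 271 and 494 to 362 and 206 in CD244-positive cells. Klf6 then passed as well (0.96, adjusted p = 0.0188), as it did with edgeR (1.41, adjusted p = 0.00595). On the deposited scale 3 of 7 genes rose in lung CD244-negative cells and 0 fell (4 at an unadjusted p under 0.05), with all 7 above 0 and a median of 0.55, whereas of all tested genes 2.18% rose and 8.52% fell. Among the 3 was S1pr1, which the expression limit admitted through lung. Lung libraries lay wholly above thymus ones for 4.75% of all genes.

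In CD244-positive cells the tissue difference fell on Klf4, Klf6 and S1pr1. Klf4 had 38 molecules in lung against 1 in thymus, a ratio of shares of 51.1 (8.63 to 2069) and a log2 difference of 2.38 ± 0.40 (adjusted p = 1.59e-06). Klf6 had 17.0, 17.7 and 16.2 units in lung against 4.12, 5.93 and 6.65 in thymus, a log2 difference of 1.47 ± 0.28 (adjusted p = 1.56e-05). S1pr1 had 5.94, 3.64 and 3.01 units in lung against 0.375, 2.54 and 0.475 in thymus, where the highest thymus library stayed under the lowest lung library. Its log2 difference was 1.39 ± 0.40 (adjusted p = 0.00832), but the adjusted p was 0.0838 without thymus library 1, 0.0667 without thymus library 3 and 0.0907 without lung library 1. Klf2, already at 4.68 to 5.93 units in thymus, had a log2 difference of 0.41 (95% interval -0.29 to 1.12) and did not pass. In all 3 of 7 rose and 0 fell (3 at an unadjusted p under 0.05) at a median of 0.46, against 5.27% of all tested genes higher, 9.61% lower and 8.41% with lung wholly above thymus. Among the 3 were Klf4 and S1pr1, which the expression limit admitted through lung. These values carry the myeloid RNA of the lung CD244-positive libraries (57.2 to 120 per 10000 against at most 0.177 in thymus), whose part was not tested. Immediate early genes summed to 71.0 to 85.2 per 10000 in these libraries against 15.5 to 18.1 in thymus CD244-positive ones. Of 19 tested, 12 passed as higher and 1 as lower in lung, against 5.27% and 9.61% of all tested genes. Their part was not tested either. Because each library is bulk RNA of 100 cells, more cells with a transcript and more transcript per cell cannot be told apart. The lung against thymus comparisons use the same libraries as the CD244 comparisons, so their values are not independent.

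Ordered by mean units, Klf2 ran from lung CD244-positive (7.99 ± 4.51) through thymus CD244-positive (5.28 ± 0.628) and lung CD244-negative (3.97 ± 1.19) to thymus CD244-negative (0.700 ± 0.626; SD, n = 3 each). Only the last step was free of overlap between neighbouring groups. S1pr1 ran from lung CD244-positive (4.20 ± 1.54) and lung CD244-negative (2.72 ± 0.673) to thymus CD244-positive (1.13 ± 1.22) and thymus CD244-negative (0.149 ± 0.258), and each group overlapped the next. Klf6 stepped down without overlap from lung CD244-positive (17.0 ± 0.787) to lung CD244-negative (7.98 ± 0.798) and to thymus CD244-positive (5.57 ± 1.30), which overlapped thymus CD244-negative (5.37 ± 2.36). Klf4 stepped down without overlap from lung CD244-positive (5.26 ± 2.48) to lung CD244-negative (0.645 ± 0.642) and was near 0 in thymus. Klf13 (chromosome 7, 63886351 to 63938915, minus strand) was the flattest, from 5.04 ± 1.06 in lung CD244-negative through 4.56 ± 1.57 in lung CD244-positive and 4.10 ± 0.561 in thymus CD244-positive to 3.41 ± 1.88 units in thymus CD244-negative cells, with every neighbour overlapping. Klf3 was highest in lung CD244-negative cells (4.01 ± 2.32), and S1pr4 had means between 1.82 and 3.33 units.

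Likeness of pattern was measured as Pearson r of log2(value + 1) over the 12 libraries, as a description only: libraries of a group share their origin, and low genes carry counting noise. The gene most like Klf2 was Ccl5 (r = 0.92), a chemokine gene with means of 91.6 and 84.8 units in CD244-positive cells of thymus and lung and of 6.60 and 34.1 units in CD244-negative cells, and Gxylt1 (0.85) was also among the likest. S1pr1 was most like Tgif1 (0.90), Serpinb6b (0.89) and Serpinb9 (0.89), which were all higher in lung by mean. Klf4 was most like Tcf4 (0.96), the fibronectin gene Fn1 (0.96) and the AP-1 gene Fosb (0.95), and Klf6 was most like Gch1 (0.93), Nfkbie (0.93) and Jun (0.93). Klf3 was most like Gpr132 (0.84), Sft2d2 (0.83) and Pim1 (0.83), Klf13 most like Otub1 (0.91), Fbrsl1 (0.86) and Irak2 (0.78), and S1pr4 most like Pgrmc2 (0.88), Fnbp4 (0.84) and Fam192a (0.84). Among the genes themselves the highest r was between Klf4 and Klf6 (0.89), followed by Klf6 with S1pr1 (0.75) and Klf2 with S1pr1 (0.72), whereas S1pr4 had r between -0.21 and 0.34 with the other 6.

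Of the 12 other Klf genes in the table, 6 (Klf1, Klf5, Klf12, Klf14, Klf15 and Klf17) were at 0 in every library and 2, Klf9 and Klf10, were tested. Neither passed in limma in any comparison (1 at an unadjusted p under 0.05, Klf10, at -0.93 ± 0.39 for lung minus thymus in CD244-negative cells), and edgeR tested neither. Of the 15 genes of sphingosine 1-phosphate receptors, metabolism and signalling, S1pr3, Sphk1, Spns2 and Mfsd2b were at 0 throughout and 7 were tested. In lung, Gnai2, which encodes the G protein subunit that S1PR1 couples to, was higher in CD244-positive cells (0.70 ± 0.22, adjusted p = 0.0261) beside the myeloid rise. The call was lost without lung CD244-positive library 2 (adjusted p = 0.0618) or 3 (0.169), and without lung CD244-negative library 1 (0.214). Gnai2 was lower in lung than in thymus CD244-negative cells (-0.72 ± 0.22, adjusted p = 0.0170), a call lost at a common total (-0.28, adjusted p = 0.547) and without thymus library 2 (0.117) or lung library 1 (0.149). Grk2, a kinase that desensitises S1PR1, was lower in lung than in thymus CD244-positive cells (-0.97 ± 0.34, adjusted p = 0.0363), which a common total also ended (-0.60, adjusted p = 0.337), as did leaving out thymus library 2 (0.111) or 3 (0.226) or lung library 3 (0.379). Cd69, whose protein pulls S1PR1 from the cell surface, had 1.89 ± 0.879 and 1.21 ± 0.344 units in CD244-positive cells of thymus and lung and 0.966 ± 0.214 and 0.835 ± 0.725 units in CD244-negative cells, and did not pass in any comparison.

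Of 5 trafficking and survival receptors tied to Klf2 or Foxo1, the interleukin 7 receptor gene Il7r fell in lung. It had 36.3 ± 7.65 and 28.2 ± 0.904 units in thymus CD244-positive and CD244-negative cells against 8.56 ± 3.84 and 8.47 ± 2.13 in lung (SD, n = 3). The log2 differences were -2.04 ± 0.23 in CD244-positive (adjusted p = 4.17e-12) and -1.65 ± 0.23 in CD244-negative cells (adjusted p = 1.83e-08), and at a common total -1.60 and -1.21, both past the threshold. On the T cell receptor complex scale they were -1.03 (adjusted p = 0.00413) and -1.48 (adjusted p = 0.000105). The medians of all genes on that scale were 0.40 and -0.16. The part of the myeloid RNA of lung CD244-positive libraries in the Il7r difference was not tested. Ccr7 was at 0 in all libraries. Itgb7 and Cxcr3 did not pass. Of 11 regulators of Klf2, 4 could be tested (Foxo1, Mef2a, Mef2d and Wwp1) and 0 passed in limma in thymus or lung CD244 comparisons (0 and 2 at an unadjusted p under 0.05, the 2 being Foxo1 and Wwp1; edgeR tested 1 and called 0). Mef2d, of the MEF2 family whose site the Klf2 window holds, had 3.08 ± 1.01 and 1.78 ± 0.545 units in thymus CD244-positive and CD244-negative cells and 3.96 ± 0.522 and 4.24 ± 1.13 in lung. Its log2 difference in thymus was 0.54 ± 0.35 (adjusted p = 0.975). Mef2a, of the same family, had 1.92 ± 1.30 and 1.66 ± 0.408 units in thymus and 3.32 ± 1.07 and 1.70 ± 1.35 in lung, in that order. Mef2c was at 0 in thymus. Foxo1, which activates Klf2, had 2.12 ± 0.251 and 1.52 ± 0.435 units in thymus and 1.33 ± 1.26 and 3.61 ± 1.45 in lung in the same order. Of 6 Krüppel-like factor cofactors, 4 (Crebbp, Ctbp1, Ep300 and Sin3a) were tested and 0 passed in limma in any comparison (3 at an unadjusted p under 0.05 for lung minus thymus in CD244-negative cells; edgeR tested 1 and called 0).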

How the data were processed

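RNA of 12 libraries of 100 sorted cells was tagged with molecular barcodes during oligo-dT priming, per the labels' protocols, with ERCC spike-ins added. Reads were mapped with STAR to mm10, per the submitters' processing notes; the counting, annotation and scaling are not given in the sources used here. The deposited signal gives each gene's molecules scaled by 1 factor for the library: 94.3% to 95.9% of nonzero values were whole multiples of the column's most frequent value (tolerance 1e-06). Columns sum to 26890.5 units in thymus and 19342.9 in lung, a ratio of 1.39, and 0 ERCC rows are present. Molecules were recovered by dividing by that value.

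Groups came from the labels. One limma 3.58.1 model (R 4.3.3; trend, robust) of log2(value + 1) with 4 group means was fitted to the 5138 genes above 1 unit in at least 3 libraries, giving 6 two-sided comparisons with Benjamini-Hochberg adjustment and a threshold of 0.05. In simulated data with 100 genes changed at each fold, the test recovered 11% of 2-fold and 77% of 4-fold changes in thymus, and 19% and 92% in lung. It also called 3 unchanged genes in thymus and 21 in lung. edgeR 4.0.16 (quasi-likelihood, TMM, filterByExpr, molecules rounded) used the 9 libraries whose lowest values were whole molecules. The smallest exact p of 3 against 3 libraries is 0.1. The limma tests of the 7 genes had 89.2 degrees of freedom, because spread is moderated across genes. Scatter of molecules between libraries of a group, as chi-square per degree of freedom, was 1.65 to 1.70 in lung CD244-positive cells. It was 1.09 to 1.23 in the other groups, so a shared spread may understate that of lung CD244-positive libraries. Gene positions are from GENCODE M21, promoters from RefSeq GRCm38.p6. The genes and lists were chosen with earlier results of these data known; named genes were the 7, list genes past the threshold and the 3 tested genes most like each of the 7, with others of the lists given as examples. Some genes these rules name are not reported here. Marker lists for epithelial cells (sum at most 3.70 molecules per 10000), B cells (1.18) and neutrophils (0.194) were also measured. Other settings were a pseudocount of 0.5, no filter, a replicate block, a common total, a T cell receptor complex scale, edgeR and each library left out; lung CD244-positive library 1 alone was chosen after seeing the data.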

Additional observations from a re-analysis of the deposited data

Results flagged for a closer look

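Klf4 was flagged because its CD244 effect differed between the tissues by a test of the difference itself. The effect in lung exceeded that in thymus by 1.90 ± 0.57 on the log2 scale (limma adjusted p = 0.0399), from 38 against 3 molecules in lung and 1 against 1 in thymus. Klf4 was among the tested genes because of its lung CD244-positive libraries, on which this difference also rests, and with no expression limit the adjusted p was 0.0634. The adjusted p ranged from 0.00143 to 0.253 over the other settings, and the call was kept in 3 of 12 fits that left out a library: library 3 of thymus CD244-positive, library 1 of lung CD244-positive and library 2 of lung CD244-negative cells. Myeloid markers, at 57.2 to 120 molecules per 10000, were in the same lung CD244-positive libraries and their part was not tested.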

How the results depend on the processing

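The number of genes called, of 7, changed as follows. edgeR tested Klf2, Klf6, Klf13 and S1pr4 but not Klf3, Klf4 or S1pr1. A lower edgeR count is therefore no loss of a call for Klf3, Klf4 or S1pr1. In lung (2 for CD244), 4 were called on the T cell scale, 1 with edgeR, 0 with lung CD244-positive library 1 alone and 1 to 2 with a library left out. Over both tissues (2), 1 was called with a pseudocount of 0.5, 4 on the T cell scale, 1 with library 1 alone and 1 to 3 with a library left out. For the difference between tissues (1), 0 were called with a pseudocount of 0.5, without a filter, with edgeR or with library 1 alone, 2 on the T cell scale, and 0 to 1 with a library left out. For lung minus thymus in CD244-positive cells (3), 7 were called on the T cell scale, where 938 of 5803 genes rose and 59 fell, 1 with edgeR, which tested 4 of the 7, 2 with library 1 alone and 2 to 3 with a library left out. For the same in CD244-negative cells (3), 4 were called at a common total, 2 on the T cell scale, 2 with edgeR and 2 to 3 with a library left out. The causes were not tested, apart from the fewer genes and libraries that edgeR and library 1 alone used; with that library alone, its spread was assumed to be that of the other groups. In thymus 1 was called in every setting. Over all genes the CD244 test called 17 higher and 4 lower in thymus, against 12 and 0 with edgeR or on the T cell scale. In lung it called 288 and 145, against 1773 and 16 on the T cell scale, 131 and 49 with edgeR and 34 and 26 with library 1 alone.

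With the replicate block the numbers of genes called were 1, 2, 2, 1, 3 and 3 in the 6 comparisons, as without it. Correlations of same-numbered libraries ran from -0.03 to 0.02, and 3 of 12 libraries correlated best with their own number. Pairing by number was thus not detected, and counting noise in such libraries could hide it.

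Values that changed sign were all short of the threshold. On the T cell scale they were Klf3 (0.34) and Klf13 (0.85) for CD244 in lung, Klf3 (0.37) and S1pr4 (0.43) over both tissues, and Klf13 (0.42) and S1pr1 (0.65) for the difference between tissues. With edgeR they were S1pr4 in lung (-0.25) and Klf13 over both tissues (-0.095). With library 1 alone they were Klf3 (0.15), Klf13 (-0.052) and S1pr4 (0.019) over both tissues, S1pr1 (0.15) for the difference, and Klf2 (-0.026) and Klf13 (-0.16) for lung minus thymus in CD244-positive cells. With a library left out, the ranges that crossed 0 were, for CD244 in thymus, -0.16 to 0.19 (Klf4) and -0.12 to 0.37 (Klf6). In lung the range was -0.54 to 0.40 (S1pr4). Over both tissues the ranges were -0.26 to 0.079 (Klf3), -0.037 to 0.24 (Klf13) and -0.39 to 0.078 (S1pr4). For the difference they were -0.56 to 0.13 (S1pr1) and -0.30 to 0.65 (S1pr4). For lung minus thymus they were -0.13 to 0.22 (Klf13, CD244-positive) and -0.19 to 0.76 (S1pr4, CD244-negative). Depth limits Klf4 and S1pr1 in thymus, with 2 and 9 molecules in 6 libraries.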
